A study of Mus musculus with 16 samples.

Results

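The genes described here encode the AMPA-type glutamate receptor and its auxiliary proteins in CA1, a subfield of the mouse hippocampus. The set held 9 of the 17986 genes measured in all libraries. It comprised the pore subunits Gria1, Gria2, Gria3 and Gria4, the auxiliary proteins Cacng2, Cacng3 and Cacng8, and the cornichon proteins Cnih2 and Cnih3. They were found by gene symbol, and the set was proposed with earlier results of these data known. The study measured RNA of CA1 by bulk sequencing in mice that were wild type or lacked Neil3, a DNA glycosylase of base excision repair, at rest and after spatial exploration. All mice were males aged 3 to 6 months of the C57Bl6 background. CA1 was cut by laser from 8 µm sections of brains that had been frozen without perfusion, and paired reads of 100 bp were sequenced. The 4 groups were wild type in the home cage (2 mice), N3 -/- in the home cage (2 mice), wild type after exploration (3 mice) and N3 -/- after exploration (3 mice). Home cage mice had no intervention. Exploration mice spent 20 min per day for 1 week in an open field with sides of 50 cm, and were killed 20 min after the final session ended. Which part of Neil3 is removed is not given in the sources used here. Another 6 samples, named as a learning condition, were not analysed here.

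The level of Neil3 went against the genotype labels. Neil3 was listed at 0 in 4 of the 5 libraries labelled wild type and at 0.05 FPKM (fragments scaled to transcript length and library depth) in the fifth. In the libraries labelled N3 -/-, it stood at 13.77 and 15.22 FPKM in the home cage and at 15.13, 11.85 and 8.35 FPKM after exploration. The groups are therefore called WT-labelled and KO-labelled, and no direction between them is a direction between known genotypes. Each environment also sits in a table of its own, and whether both tables were normalized together is not stated. Environment and table cannot be told apart, so every comparison of exploration with the home cage is also one between tables.

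AMPA receptors are cation channels built from 4 pore subunits, and they carry most of the fast excitatory current at synapses of the brain. Gria2 sets the passage of calcium, because its RNA is edited at a glutamine codon in the pore loop, and receptors without the edited subunit let calcium through. Cacng2, Cacng3 and Cacng8 belong to the transmembrane AMPA receptor regulatory proteins, which take the receptor to the synapse and slow its closing, and Cacng8 is known as the main one of the hippocampus. Cnih2 and Cnih3 help the receptor out of the endoplasmic reticulum and also slow its closing at the cell surface.

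The site of that editing is shown because it separates the role of Gria2 from the other subunits, and because the 4 genes are close in sequence there. Each line gives 60 bases of coding sequence of the reference (GRCm38 with the GENCODE annotation), 5′ to 3′, with the glutamine codon of the pore loop in capitals.
Gria1: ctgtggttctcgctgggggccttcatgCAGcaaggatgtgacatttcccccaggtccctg
Gria2: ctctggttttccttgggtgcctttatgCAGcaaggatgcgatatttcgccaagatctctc
Gria3: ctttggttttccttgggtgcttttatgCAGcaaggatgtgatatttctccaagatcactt
Gria4: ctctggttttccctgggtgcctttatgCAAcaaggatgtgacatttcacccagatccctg
The codon lies at chr11:57243094-57243096 on the plus strand in exon 11 of Gria1, and at chr3:80706911-80706913 on the minus strand in exon 11 of Gria2. It lies at chrX:41610265-41610267 on the plus strand in exon 11 of Gria3, and at chr9:4464137-4464139 on the minus strand in exon 12 of Gria4. Each window spans 2 coding exons. The codon is CAG in Gria1, Gria2 and Gria3 and CAA in Gria4, and all of these read as glutamine in the genome. Between pairs of genes, 78.3% to 90.0% of the 60 bases were identical, lowest for Gria1 with Gria2 or Gria3 and highest for Gria2 with Gria3. A gene's FPKM value holds neither the edited share nor the flip and flop splice forms. How the authors assigned reads shared between these genes is not given in the sources used here.

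All 9 genes were detected in every library and were among the 11892 genes tested, for which a level of 1 FPKM or more was required in 2 or more libraries. FPKM is scaled to transcript length, so an order of levels between genes depends on the lengths used, which are not given in the sources used here. By estimated fragments, taken with the longest transcript listed for each gene, Gria2 (36102 to 48698 per library) stood above Cnih2 (15979 to 23623). The order below is that of FPKM. Cnih2 had the highest level, with group means from 757 ± 39.6 FPKM (SD, n = 2) in WT-labelled home cage mice to 956 ± 68.5 FPKM (SD, n = 3) in KO-labelled exploration mice. Gria1 and Gria2 came next, followed by Cacng8, Cacng3 and Gria3. Ranked by mean level among all tested genes, Cnih2 was number 34, Gria1 number 179 and Gria2 number 363. Cnih3, Cacng2 and Gria4 were the lowest, and Gria4 ranked number 6981 at group means of 7.09 to 8.88 FPKM. This order was the same in 3 of the 4 groups. In KO-labelled home cage mice Cnih3 (mean 52.5 FPKM) stood above Gria3 (mean 49.8 FPKM), with overlapping libraries. Neighbours in the order also overlapped for Cnih3 and Cacng2 in WT-labelled home cage mice and for Cacng2 and Gria4 in KO-labelled home cage mice. All other neighbours were separated in every library of their group.

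**Figure D1:**
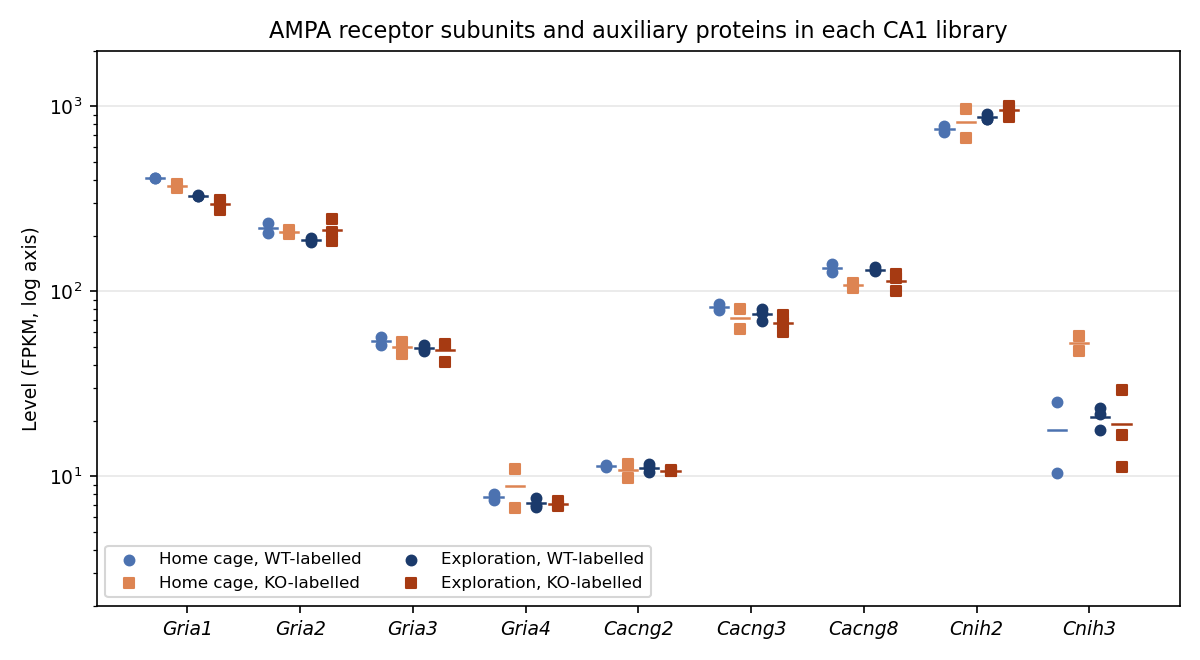
FPKM of the 9 genes in each of the 10 libraries on a log axis, with circles for WT-labelled and squares for KO-labelled mice and a horizontal line at each group mean. Cnih2 and Gria1 stand highest and Gria4 lowest, and Cnih3 shows the widest spread, from 10.4 to 57.2 FPKM.

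The spread over the 10 libraries was moderate for all but Cnih3. The coefficient of variation was 5.41% for Cacng2, 8.25% for Gria3, 9.68% for Gria2, 10.8% for Cacng8, 11.4% for Cacng3, 12.7% for Cnih2, 13.3% for Gria1 and 16.7% for Gria4. The median over all tested genes was 13.4%, and over genes at a mean of 5 FPKM or more, where all 9 lie, it was 10.9%. Against the latter, Cacng2, Gria3, Gria2 and Cacng8 lay below and the other 5 above. Cnih3 stood apart at 58.7%, with its highest library at 5.50 times its lowest.

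Estimated depth was 18550000 to 19900000 fragments per library, a narrow range, and 11114 to 11623 genes reached 1 FPKM. At this depth Gria2 rested on an estimated 36102 to 48698 fragments, Gria4 on 685 to 1121 and Cnih3 on 505 to 2799 per library. Of the labelled tissue, all 8 markers of CA1 pyramidal neurons were above 0 in every library, with a summed level of 669 to 809 FPKM. Dentate granule markers summed to 4.11 to 6.45 FPKM. Choroid plexus markers summed to 235 FPKM in WT-labelled home cage library 1 and to 131.5 and 108 FPKM in WT-labelled exploration libraries 1 and 2, against 9.43 to 17.8 FPKM in the other 7. Calls that changed without these 3 libraries are given with the receptor genes and, for the other genes of the pathway, after them. All 3 are WT-labelled, so without them neither WT-labelled group has a replicate. A call lost in that fit cannot be told apart from the loss of replicates. In bulk samples, fewer cells of a type and less RNA per cell cannot be told apart.

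Across the comparisons, Gria1 was lower after exploration in mice of both labels, and Cnih3 was high in KO-labelled home cage mice. Calls were made with limma on log2(FPKM + 1) over all tested genes, at a Benjamini-Hochberg adjusted p under 0.05, and log2 changes are on that scale, which understates changes of low genes. Between genotype labels in the home cage, 1 of the 9 genes was called (Cnih3, higher), where 3.57% of all tested genes were called in either direction. After exploration 0 of 9 were called by limma, against 0.597% of all genes, with 2 of 9 (Gria1 and Cacng8) at an unadjusted p under 0.05. Averaged over both environments 0 of 9 were called by limma, against 2.13% of all genes, with 4 of 9 at an unadjusted p under 0.05. Between environments, 1 of 9 was called in WT-labelled mice (Gria1, lower), where 6.31% of all genes were called. In KO-labelled mice 2 of 9 were called (Gria1 and Cnih3, both lower), a share close to the 28.6% of all genes. Averaged over both labels 1 of 9 was called (Gria1, lower), against 31.9% of all genes. The difference between the labels in the exploration response was called by limma for 0 of 9, against 0.875% of all genes, with 1 of 9 (Cnih3) at an unadjusted p under 0.05. The share of all genes under that unadjusted cutoff was not counted, here or for the lists below. Counts at an unadjusted p therefore cannot be set against the shares called, which rest on adjusted p. Averaged over environments, Cacng3 had a limma p of 0.0414 but an adjusted p of 0.225, so low unadjusted p-values were common among all genes.

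**Figure D2:**
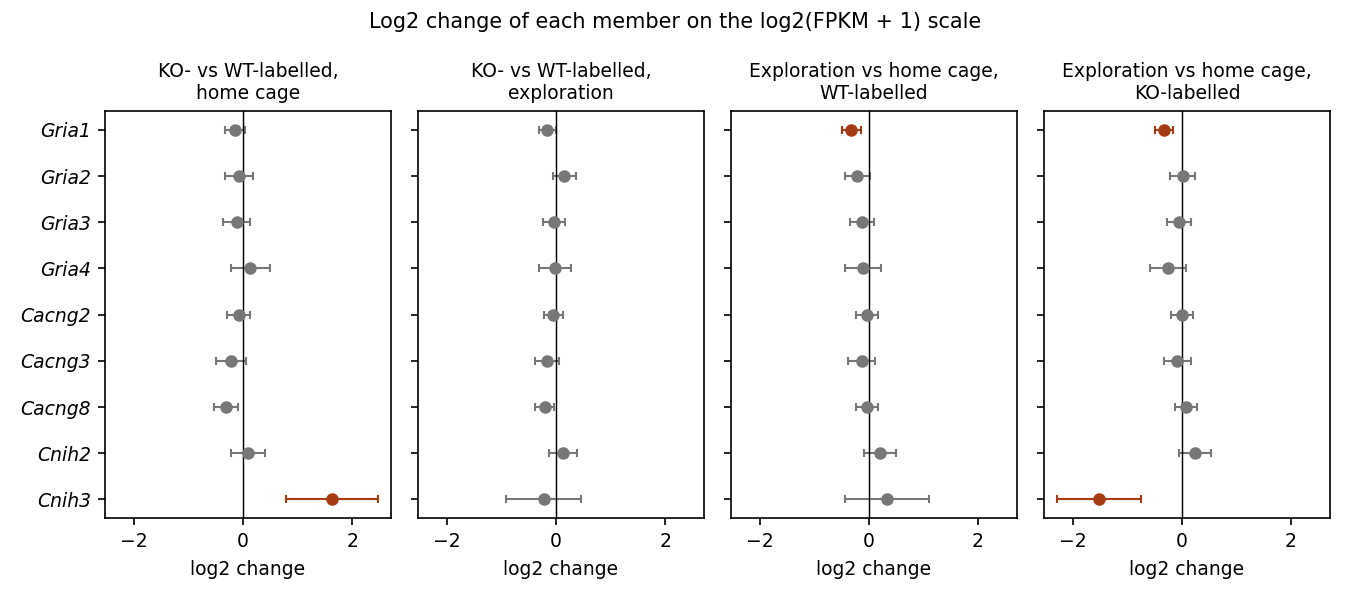
Log2 change of each of the 9 genes with its 95% confidence interval from limma, in 4 comparisons, with called genes in orange and the others in grey. Gria1 lies below 0 in both panels of exploration against home cage, and Cnih3 lies at 1.63 between labels in the home cage and at -1.51 between environments in KO-labelled mice.

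Groups were also read by whether any libraries overlapped. Between labels, 3 of 9 genes had separate groups in the home cage (Gria1, Cacng8 and Cnih3), against 46.9% of all tested genes, and 2 of 9 after exploration (Gria1 and Cacng8), against 24.9%. Between environments, 3 of 9 were separate in WT-labelled mice (Gria1, Gria2 and Cnih2), against 47.8%, and 2 of 9 in KO-labelled mice (Gria1 and Cnih3), against 52.1%. With so few libraries, separation was common among all genes, and in none of these comparisons did the share of the receptor genes exceed that of all genes. Separation of the labels on the same side in both environments was seen for 2 of 9, against 6.79% of all tested genes. The median log2 change over the 9 genes was -0.08 between labels in the home cage and -0.05 after exploration, where the medians over all tested genes were -0.02 and -0.01. Between environments, averaged over labels, it was -0.10 against -0.03 for all tested genes. The comparisons between environments share libraries with those between labels, so they are not separate evidence.

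Gria1 encodes GluA1, the subunit whose phosphorylation and delivery to synapses are studied in hippocampal plasticity. Its level was 411 and 411 FPKM in WT-labelled and 364 and 382 FPKM in KO-labelled home cage mice. After exploration it was 327, 333 and 329 FPKM in WT-labelled and 274, 313 and 304 FPKM in KO-labelled mice. Every exploration library lay below every home cage library. Gria1 fell by 19.8% of the group mean in WT-labelled mice (log2 change -0.32, SE 0.077, adjusted p = 0.0336) and fell by 20.3% in KO-labelled mice (log2 change -0.33, SE 0.077, adjusted p = 0.0104, both by limma). Averaged over labels the log2 change was -0.32 (SE 0.054, limma adjusted p = 0.00187). Groups separated on the same side in both labels for 1 of the 9 genes, against 24.3% of all tested genes. The exploration response of Gria1 differed between labels by -0.01 on the log2 scale (95% interval -0.25 to 0.23, limma adjusted p = 0.977).

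The averaged fall of Gria1 was called with each of the 10 libraries left out in turn. Without the 3 libraries with a choroid plexus signal it was -0.32 but was not called (limma adjusted p = 0.0791), and under quantile normalization it grew to -0.54. The call in WT-labelled mice was lost without any of the 5 WT-labelled libraries, at log2 changes of -0.31 to -0.32, with median-of-ratios size factors (-0.28, limma adjusted p = 0.0785) with no filter on low values (limma adjusted p = 0.0559) and without the 3 libraries with a choroid plexus signal (limma adjusted p = 0.635). The call in KO-labelled mice was lost without KO-labelled home cage library 2 (-0.29, limma adjusted p = 0.0907), with only the compared groups fitted (limma adjusted p = 0.0775) and without those 3 libraries (limma adjusted p = 0.0779). Interneuron markers summed to 215 to 249 FPKM in home cage libraries and to 280 to 363 FPKM in exploration libraries, with all 8 markers above 0. In the averaged comparison of environments, 31.9% of all tested genes were called in either direction. There, 1 of 8 CA1 pyramidal markers was called higher and 5 lower (median log2 change -0.26). Called higher, with none lower, were 3 of 8 interneuron, 4 of 8 astrocyte, 5 of 8 oligodendrocyte and 4 of 8 microglia markers (medians 0.22, 0.22, 0.29 and 0.23). The interneuron count is near the share of all genes. Of 5 tested CA2 and CA3 markers, 3 were called higher (median 1.21). The part of these markers in the result was not tested.

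Between the labels, the KO-labelled mean of Gria1 differed from the WT-labelled mean by -9.32% in the home cage and by -9.91% after exploration. The libraries did not overlap in either environment, but neither difference was called. The log2 change was -0.14 in the home cage (SE 0.084, limma adjusted p = 0.411) and -0.15 after exploration (SE 0.069, limma adjusted p = 0.286). Separation on the same side in both environments was seen for 2 of the 9 genes, Gria1 and Cacng8, both lower. Over all tested genes it was seen for 6.79% in either direction.

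**Figure D3:**
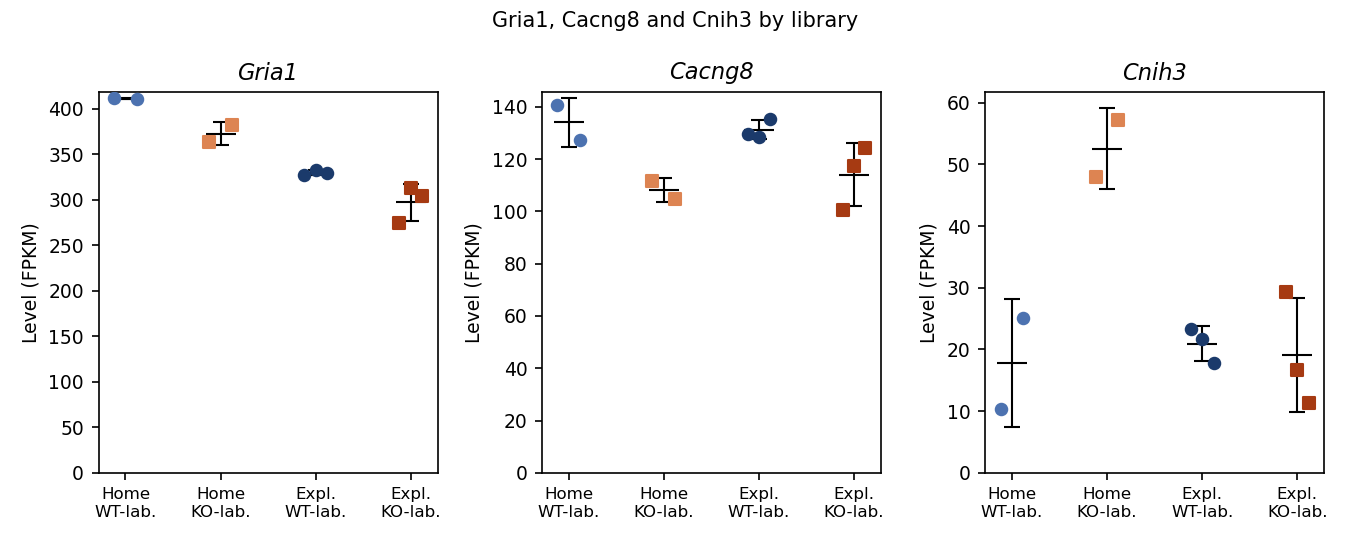
FPKM of Gria1, Cacng8 and Cnih3 by group on linear axes from 0, with a point per library and lines for the group mean and its SD. Gria1 steps down from 411 FPKM in WT-labelled home cage mice to 297 FPKM in KO-labelled exploration mice, and Cnih3 stands above all other groups in KO-labelled home cage mice.

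Gria2, the subunit that limits calcium entry, was at 207 and 233 FPKM in WT-labelled and 216 and 205 FPKM in KO-labelled home cage mice. In exploration mice the level was 186, 189.7 and 196 FPKM in WT-labelled and 246, 208 and 186 FPKM in KO-labelled mice. The WT-labelled exploration libraries all lay below the WT-labelled home cage libraries, while the KO-labelled groups overlapped. Gria2 was not called in any of the 7 comparisons. Its log2 change with exploration was -0.21 in WT-labelled mice (SE 0.106, limma adjusted p = 0.268) and 0.02 in KO-labelled mice (SE 0.106, limma adjusted p = 0.928). Under quantile normalization it was called lower in WT-labelled mice (-0.40, limma adjusted p = 0.0351).

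Gria3 lay between 41.6 and 56.5 FPKM in all 10 libraries, and Gria4 between 6.73 and 11.02 FPKM. Gria4 is the subunit of fast interneuron synapses and early development. Neither gene was called in any comparison. The highest Gria4 value was in KO-labelled home cage library 2 (11.02 FPKM), beside 6.73 FPKM in library 1 of the same group. Without that lower library, Gria4 was called lower after exploration in KO-labelled mice (log2 change -0.57, limma adjusted p = 0.00493), against -0.25 with all libraries.

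The subunits were also read as shares of the summed level of all 4 Gria genes, which does not depend on the scaling of a library. The mean sum was 693 FPKM in WT-labelled and 641 FPKM in KO-labelled home cage mice, and 576 and 566 FPKM in WT-labelled and KO-labelled exploration mice. Gria1 made up 60.7% and 58.0% of the sum in WT-labelled and 57.5% and 58.6% in KO-labelled home cage mice. After exploration its share was 57.2%, 57.5% and 56.8% in WT-labelled and 47.4%, 53.9% and 56.4% in KO-labelled mice. Gria2 took the largest part of the remainder, with means of 31.8%, 32.8%, 33.0% and 37.7% in the same order of groups. Gria3 held 7.30% to 8.94% and Gria4 1.06% to 1.69% in every library. KO-labelled exploration library 1 had the lowest Gria1 share and the highest Gria2 share (42.5%).

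**Figure D4:**
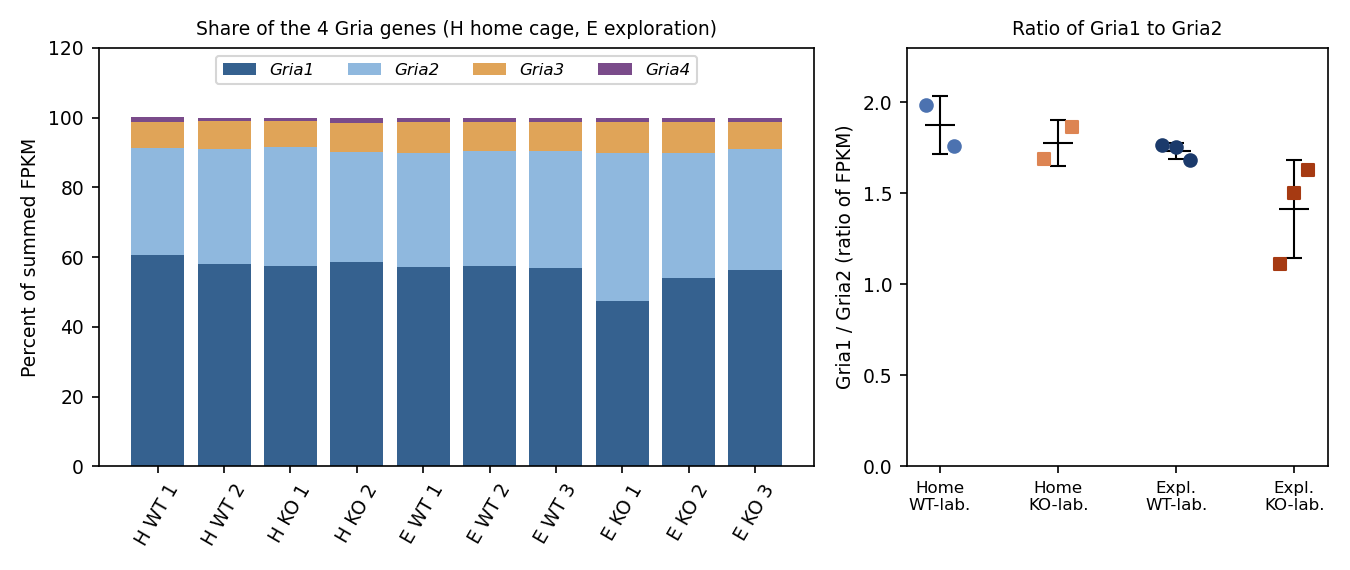
Left, the share of each Gria gene in the summed FPKM of the 4 genes for each library, in percent; right, the ratio of Gria1 to Gria2 by group, with a point per library and lines for the mean and SD. KO-labelled exploration library 1 has the lowest ratio, 1.11, and WT-labelled home cage library 1 the highest, 1.99.

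The ratio of Gria1 to Gria2 was 1.87 ± 0.160 (SD, n = 2) in WT-labelled and 1.78 ± 0.127 (SD, n = 2) in KO-labelled home cage mice. The exploration values were 1.73 ± 0.043 (SD, n = 3) in WT-labelled and 1.42 ± 0.269 (SD, n = 3) in KO-labelled mice. The log2 difference of exploration from home cage, taken within each label, was -0.23, and the two-sided exact permutation p was 0.06 over 100 arrangements (0.25 adjusted over the 6 ratio tests). For the genotype labels, taken within each environment, the log2 difference was -0.19 with a two-sided exact permutation p of 0.0833 over 120 arrangements (0.25 adjusted over the 6 tests). Neither difference passed the test. The unadjusted exact permutation p for the environment came to 0.025 to 0.0333 without WT-labelled home cage library 2 or without any KO-labelled exploration library. Without KO-labelled exploration library 1 the log2 difference was -0.15. For the labels it came to 0.0333 without WT-labelled home cage library 2 or without KO-labelled exploration library 3. For Gria3 and Gria4 relative to Gria2, the exact permutation p ranged from 0.167 to 0.95 with all libraries, and for Gria3 between labels it was 0.0333 without KO-labelled home cage library 2.

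Among the regulatory proteins of the set, Cacng8 had the highest FPKM. Cacng3 rested on more estimated fragments, at 3038 to 4266 against 2480 to 3414 per library for Cacng8. These estimates grow with the transcript length used, 2777 nt for Cacng3 and 1380 nt for Cacng8, so they are not a second measure of level. Cacng8 was at 141 and 127 FPKM in WT-labelled and 111 and 105 FPKM in KO-labelled home cage mice. After exploration it was at 129.8, 129 and 135 FPKM in WT-labelled and 101, 117.6 and 124 FPKM in KO-labelled mice. All 5 KO-labelled libraries lay below all 5 WT-labelled libraries. The KO-labelled mean differed from the WT-labelled mean by -19.3% in the home cage and by -13.1% after exploration. The log2 change averaged over environments was -0.26 (SE 0.065, 95% interval -0.40 to -0.11, unadjusted p = 0.00203), and it did not pass the threshold over all genes (limma adjusted p = 0.0607). It was called with 1 of the 10 libraries left out in turn, KO-labelled exploration library 3 (-0.29, limma adjusted p = 0.0409). The home cage change was also called with 1 of the 10 left out, KO-labelled exploration library 1 (-0.31, limma adjusted p = 0.0463). Neither change was called under any of the other alternatives. Between environments Cacng8 differed by 0.02 on the log2 scale (95% interval -0.12 to 0.16, limma adjusted p = 0.824).

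Cacng3, which is expressed with Cacng8 in cortical and hippocampal pyramidal cells, ranged from 60.2 to 85.9 FPKM. Its group means were 82.6 and 71.5 FPKM in WT-labelled and KO-labelled home cage mice and 75.3 and 67.4 FPKM after exploration, and the groups overlapped in both environments. The log2 change averaged over environments was -0.19 (SE 0.082, limma adjusted p = 0.225). Cacng2, also called stargazin, lay between 9.83 and 11.7 FPKM, the narrowest range of the set, and its changes ran from -0.08 to 0.03 on the log2 scale over the 7 comparisons.

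Cnih2, the cornichon of hippocampal pyramidal cells, was at 785 and 729 FPKM in WT-labelled and 969 and 675 FPKM in KO-labelled home cage mice. In exploration mice the level was 852, 853 and 915 FPKM in WT-labelled and 982, 879 and 1008 FPKM in KO-labelled mice. In WT-labelled mice every exploration library lay above both home cage libraries, and in KO-labelled mice the groups overlapped through the high home cage library 1. The log2 change with exploration averaged over labels was 0.22 (SE 0.094, 95% interval 0.02 to 0.43) and was not called (limma adjusted p = 0.0891). Without KO-labelled home cage library 1 it was called higher (0.35, limma adjusted p = 0.00311).

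Cnih3, the other hippocampal cornichon, varied most. Its level was 10.4 and 25.1 FPKM in WT-labelled and 47.9 and 57.2 FPKM in KO-labelled home cage mice. The exploration values were 23.3, 21.7 and 17.8 FPKM in WT-labelled and 29.3, 16.7 and 11.3 FPKM in KO-labelled mice. Both KO-labelled home cage libraries were above all 8 others, and the other groups overlapped each other. In the home cage the KO-labelled mean was 2.96 times the WT-labelled mean (log2 change 1.63, SE 0.386, limma adjusted p = 0.0413). In KO-labelled mice the exploration mean was 0.363 of the home cage mean (log2 change -1.51, SE 0.352, limma adjusted p = 0.0102). In WT-labelled mice the log2 change with exploration was 0.34 (95% interval -0.43 to 1.11, limma adjusted p = 0.610). The test of the difference between these responses gave -1.85 (SE 0.498), which was not called (limma adjusted p = 0.0907).

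The call in the home cage was close to the threshold. It held with 3 of the 10 libraries left out in turn, WT-labelled home cage library 2 and KO-labelled exploration libraries 1 and 3, and was lost with each of the other 7. Without WT-labelled home cage library 1 the log2 change was 1.03 (limma adjusted p = 0.302), without KO-labelled home cage library 1 it was 1.75 (limma adjusted p = 0.0831), and without KO-labelled home cage library 2 the limma adjusted p was 0.211. It was also lost with no filter on low values (limma adjusted p = 0.117) and without the 3 libraries with a choroid plexus signal (1.03, limma adjusted p = 0.445). The call between environments in KO-labelled mice was lost with 1 of the 10 left out, KO-labelled home cage library 2 (-1.38, limma adjusted p = 0.116). The difference in response was called without WT-labelled home cage library 2 (-2.45, limma adjusted p = 0.0413) and without KO-labelled exploration library 1 (-2.19, limma adjusted p = 0.0237).

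Other genes of hippocampal subfields moved in the same libraries. The summed level of the 8 markers of CA2 and CA3 pyramidal neurons was 258 and 123 FPKM in WT-labelled and 111 and 112 FPKM in KO-labelled home cage mice. It was 189 to 209 FPKM in WT-labelled and 182 to 295 FPKM in KO-labelled exploration mice. The sum was lowest in the group with the most Cnih3, but WT-labelled home cage library 2 was close to that group. Rgs14 alone was at 99.6 and 94.1 FPKM in the KO-labelled home cage libraries. Of the 5 tested markers of this list, 0 were called between labels in the home cage (median log2 change -1.49). With exploration, 4 of the 5 were called higher and 0 lower in KO-labelled mice (median 2.24), where 28.6% of all tested genes were called. In WT-labelled mice 0 were called with exploration (median 0.18). The difference in response was called for 1 of the 5, higher (median 2.07), beside 0.875% of all tested genes. Of its defining markers, Iyd was at 0 in a library of 3 groups and Map3k15 at 0 in a library of the KO-labelled home cage group. Pcp4, a marker of CA2, was at 84.3 and 10.7 FPKM in WT-labelled and 5.05 and 9.43 FPKM in KO-labelled home cage mice. After exploration Pcp4 lay at 46.3 to 113 FPKM. Of the 8 CA1 pyramidal markers, 2 were called higher and 1 lower between labels in the home cage, where 3.57% of all tested genes were called. Their median log2 change was 0.16, with a summed level of 784 to 790.5 FPKM in WT-labelled and 734 to 773 FPKM in KO-labelled mice. Single markers of that list differed in direction: Wfs1 was at 219 and 192 FPKM in WT-labelled and 127 and 64.9 FPKM in KO-labelled mice, and Mpped1 at 157 and 184 FPKM and 219 and 234 FPKM. Dcn was at 0.20 and 0.69 FPKM in WT-labelled and 2.82 and 27.2 FPKM in KO-labelled mice. KO-labelled home cage library 2 had the lowest Wfs1 and the highest Dcn of all libraries. Astrocyte markers summed to 171 to 186 FPKM in WT-labelled and 260 to 304 FPKM in KO-labelled home cage mice. The part of these markers in the Cnih3 result was not tested.

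The genes whose pattern over the 10 libraries was most like that of Cnih3 were Cpne7, a calcium-binding copine, Necab1, a neuronal calcium-binding protein, and Icosl, a costimulatory ligand. Likeness was the root mean square difference between log2(FPKM + 1) values centred on each gene's mean, and it was 0.075 for Cpne7, 0.197 for Necab1 and 0.201 for Icosl. Cnih3 itself had a root mean square of 0.723, and the nearest other receptor gene, Gria4, was at 0.673. Cpne7 was at 33.1 and 72.1 FPKM in WT-labelled and 147 and 179 FPKM in KO-labelled home cage mice. After exploration it was at 78.0, 73.0 and 59.4 FPKM in WT-labelled and 98.2, 51.2 and 34.8 FPKM in KO-labelled mice. The order of the libraries within each of the 4 groups was the same for Cpne7 as for Cnih3. Cpne7 was picked by its likeness over these same libraries, so the shared order is not separate evidence. For Gria1, genes among the most alike were Kat6a (0.036) and Ube4a (0.040), beside 0.181 for Gria1 itself and 0.167 for Gria3, the nearest other receptor gene.

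**Figure D5:**
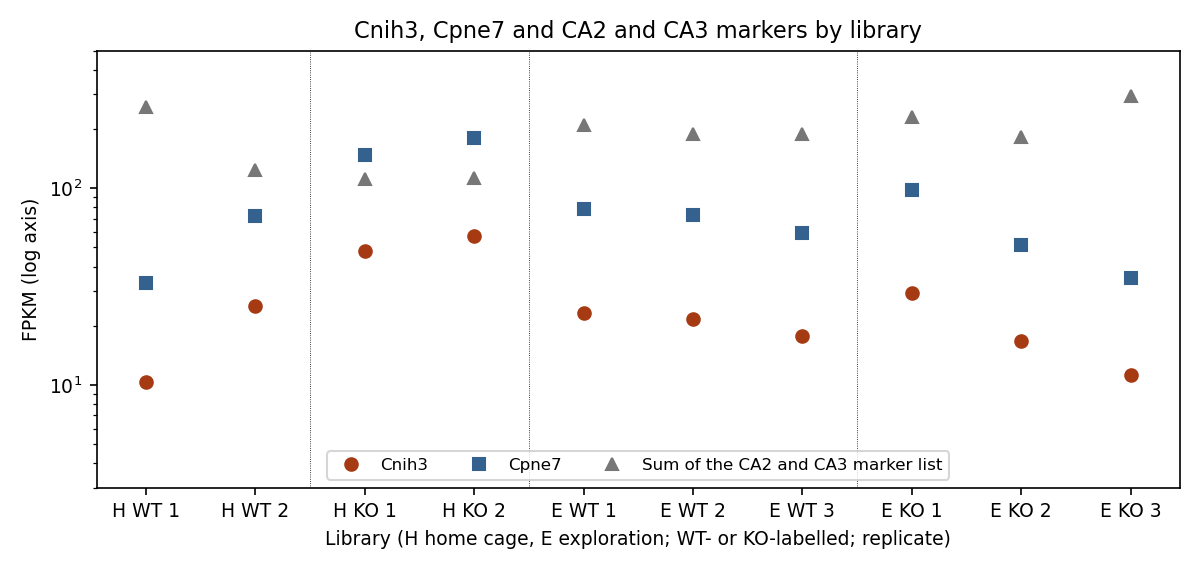
FPKM of Cnih3, Cpne7 and the summed CA2 and CA3 marker list in each of the 10 libraries on a log axis, with dotted lines between groups. Cnih3 and Cpne7 are both highest in the KO-labelled home cage libraries, where the marker sum is lowest.

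The other genes of the pathway were read from 5 lists with 38 genes in all. The list of further auxiliary subunits held 11 genes, of which 10 were tested, since Shisa8 stayed at 0.22 FPKM or lower. Between labels in the home cage 1 of 10 rose and 0 fell, after exploration 0 rose and 1 fell, and averaged over environments 0 rose and 2 fell. Between environments, 0 rose and 1 fell in WT-labelled mice, 2 rose and 4 fell in KO-labelled mice, and 1 rose and 3 fell averaged over labels. In the same order, the shares of all tested genes called in either direction were 3.57%, 0.597% and 2.13% between labels, and 6.31%, 28.6% and 31.9% between environments. The median log2 change in the averaged comparisons was -0.15 between labels and -0.03 between environments, beside -0.01 and -0.03 for all tested genes.

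Shisa7, a transmembrane auxiliary protein of hippocampal receptors, had a pattern with the same order of group means as Gria1. It was at 102 and 96.4 FPKM in WT-labelled and 70.8 and 79.5 FPKM in KO-labelled home cage mice. In exploration mice the level was 71.1, 71.8 and 68.8 FPKM in WT-labelled and 45.9, 58.1 and 60.8 FPKM in KO-labelled mice. The libraries of the labels did not overlap in either environment. Shisa7 fell with exploration in WT-labelled mice (-0.48, SE 0.107, limma adjusted p = 0.0235), in KO-labelled mice (-0.45, SE 0.107, limma adjusted p = 0.0109) and between labels averaged over environments (-0.38, SE 0.076, limma adjusted p = 0.0323). The fall with exploration averaged over labels (-0.47, limma adjusted p = 0.00155) was called with each library left out in turn. The call in WT-labelled mice was lost without any of the 5 WT-labelled libraries, and that in KO-labelled mice without KO-labelled home cage library 2 (-0.37, limma adjusted p = 0.136). The call between labels was lost without any WT-labelled library or KO-labelled home cage library 1 (-0.34 to -0.40).

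Prrt1, also known as SynDIG4 and linked to the receptor pool outside synapses, was at 150.2 and 134 FPKM in WT-labelled and 119 and 133 FPKM in KO-labelled home cage mice. The exploration values were 128, 126 and 129 FPKM in WT-labelled and 60.03, 80.1 and 91.4 FPKM in KO-labelled mice. The 3 KO-labelled exploration libraries lay below all 7 others. Prrt1 fell between labels after exploration (-0.74, SE 0.123, limma adjusted p = 0.0281) and between environments in KO-labelled mice (-0.72, SE 0.138, limma adjusted p = 0.00444). The call between labels was lost without any of the 3 WT-labelled exploration libraries or KO-labelled exploration library 2 (-0.73 to -0.78), and that between environments without KO-labelled home cage library 2 (-0.64, limma adjusted p = 0.0686).

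Shisa9, which modulates receptor desensitization, was at 3.72 and 3.41 FPKM in WT-labelled and 6.30 and 11.2 FPKM in KO-labelled home cage mice, and at 2.45 to 4.03 FPKM after exploration. It rose between labels in the home cage (1.05, SE 0.240, limma adjusted p = 0.0377) and fell with exploration in KO-labelled mice (-1.26, SE 0.219, limma adjusted p = 0.00289). Without KO-labelled home cage library 2 these changes were 0.68 and -0.88, and neither was called. The first was also lost without either WT-labelled home cage library, WT-labelled exploration library 1 or 2, or KO-labelled exploration library 2. Gsg1l, a subunit known to dampen receptor current, was at 1.89 and 2.16 FPKM in KO-labelled home cage mice, at 3.23 and 3.43 FPKM in WT-labelled home cage mice and at 3.74 to 6.03 FPKM after exploration. It rose with exploration in KO-labelled mice (0.94, SE 0.165, limma adjusted p = 0.00308) and averaged over labels (0.67, limma adjusted p = 0.00226). Cacng5, a regulatory protein known from CA2, rose with exploration in KO-labelled mice from 0.83 and 0.65 FPKM to 2.35, 2.75 and 5.80 FPKM (1.34, limma adjusted p = 0.0272), a call lost without either KO-labelled home cage library or KO-labelled exploration library 3. It was at 5.99 FPKM in WT-labelled home cage library 1, the library with the higher CA2 and CA3 marker sum of its group. Cacng7 fell by 0.29 on the log2 scale in KO-labelled mice (limma adjusted p = 0.0313), and the call was lost without either KO-labelled home cage library or KO-labelled exploration library 1.

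Of the 6 genes of receptor biogenesis in the endoplasmic reticulum, 0 were called by limma between labels in either environment. The shares of all tested genes called were 3.57% and 0.597%, so 0 calls in so short a list say little about it. Unadjusted p was under 0.05 for 2 of 6 in the home cage and 1 of 6 after exploration. Between environments 0 of 6 were called by limma in WT-labelled mice, beside 6.31% of all tested genes, and 0 of 6 had an unadjusted p under 0.05. In KO-labelled mice 2 rose and 0 fell, where 28.6% of all tested genes were called. The risen genes were Abhd6, a lipase that restrains receptor delivery, and Abhd12, a related lipase. Abhd6 was at 37.4 and 35.0 FPKM in KO-labelled home cage mice and at 48.5, 54.2 and 57.5 FPKM in KO-labelled exploration mice (0.55, SE 0.086, limma adjusted p = 0.00212). In WT-labelled mice it lay between 44.8 and 49.9 FPKM in both environments. The rise of Abhd12 was 0.32 (SE 0.099, limma adjusted p = 0.0329) and was called with 4 of the 10 libraries left out in turn. It was lost without KO-labelled home cage library 2 (0.14, limma adjusted p = 0.345), any KO-labelled exploration library or WT-labelled exploration library 1 or 2, and under quantile normalization (0.08, limma adjusted p = 0.428). The median of the list in KO-labelled mice was 0.14, beside -0.04 for all tested genes.

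Among the 8 secreted and surface organizers, 1 rose and 1 fell between labels in the home cage and 1 rose and 1 fell between environments in KO-labelled mice, beside 3.57% and 28.6% of all tested genes called. Nptxr, the membrane-bound pentraxin that clusters AMPA receptors, was at 42.7 and 52.8 FPKM in WT-labelled and 88.5 and 156 FPKM in KO-labelled home cage mice. After exploration it was at 55.1, 57.7 and 42.2 FPKM in WT-labelled and 40.1, 35.2 and 39.0 FPKM in KO-labelled mice. Both KO-labelled home cage libraries stood above all others, as for Cnih3. Nptxr rose between labels in the home cage (1.29, SE 0.219, limma adjusted p = 0.0157) and fell with exploration in KO-labelled mice (-1.60, SE 0.200, limma adjusted p = 0.00103). Without KO-labelled home cage library 2 these changes were 0.88, no longer called, and -1.20, still called. The home cage call was also lost without WT-labelled home cage library 1 (1.14, limma adjusted p = 0.156). The exploration response of Nptxr and Olfm3 was called as different between the labels by limma, at -1.71 and 1.82 on the log2 scale. In the other 4 lists 0 genes were called for that difference, beside 0.875% of all tested genes. Unadjusted p was under 0.05 for 5 of 10 further auxiliary subunits, 1 of 6 biogenesis genes, 2 of 11 trafficking genes and 0 of 2 editing enzymes.

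Olfm3, a secreted olfactomedin found in AMPA receptor complexes, ran the other way. It was at 14.2 and 13.8 FPKM in WT-labelled and 5.39 and 2.53 FPKM in KO-labelled home cage mice, and at 11.5 to 16.2 FPKM in all 6 exploration libraries. It fell between labels in the home cage (-1.66, SE 0.221, limma adjusted p = 0.00676) and rose with exploration in KO-labelled mice (1.64, SE 0.201, limma adjusted p = 0.00097). The home cage call was lost without WT-labelled home cage library 1 (-1.64, limma adjusted p = 0.0693). Nrn1, a small anchored neuritin, was at 147 and 155 FPKM in WT-labelled and 191 and 183 FPKM in KO-labelled home cage mice, and at 171 to 179.7 and 197 to 236 FPKM after exploration. It rose between labels averaged over environments (0.29, SE 0.060, limma adjusted p = 0.0376), and the call held with 2 of the 10 libraries left out in turn, KO-labelled exploration libraries 1 and 3.

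Of the 11 genes of trafficking and anchoring, 0 were called by limma between labels, beside 3.57% of all tested genes in the home cage and 0.597% after exploration. Unadjusted p was under 0.05 for 1 of 11 in the home cage and 3 of 11 after exploration. Between environments in KO-labelled mice 0 rose and 2 fell, near the 28.6% of all tested genes called for a list this short. The median of the list was -0.17, beside -0.04 for all tested genes. Grip1, a scaffold that binds Gria2 and Gria3, was at 4.06 and 4.34 FPKM in KO-labelled home cage mice and at 2.22, 1.74 and 1.58 FPKM in KO-labelled exploration mice (-0.88, SE 0.136, limma adjusted p = 0.00202). In WT-labelled mice it lay between 2.27 and 3.24 FPKM in both environments. Dlg2, a synaptic scaffold also known as PSD-93, fell by 0.28 on the log2 scale with exploration in KO-labelled mice (limma adjusted p = 0.0316), and the call was lost without KO-labelled home cage library 2 (-0.16, limma adjusted p = 0.321), without KO-labelled exploration library 1 or 3, with size factors (-0.22, limma adjusted p = 0.0652) and with only the compared groups fitted.

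Adarb1 encodes the enzyme that edits the Gria2 codon shown above. It lay between 8.15 and 11.2 FPKM in all 10 libraries and was not called in any comparison, with log2 changes of -0.15 to 0.13. Adar, the related editing enzyme, was at 25.4 and 31.4 FPKM in KO-labelled home cage mice and at 19.9, 18.8 and 21.3 FPKM in KO-labelled exploration mice. It fell between environments in KO-labelled mice (-0.48, SE 0.145, limma adjusted p = 0.0296), and the call was lost without KO-labelled home cage library 2 (-0.33, limma adjusted p = 0.285) and without KO-labelled exploration library 1 or 2.

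The 3 libraries with a choroid plexus signal are all WT-labelled, so without them neither WT-labelled group has a replicate. The calls of pathway genes between labels named here were then all lost, which cannot be told apart from the loss of replicates. In the home cage the log2 changes of Shisa9, Nptxr and Olfm3 were 1.10, 1.14 and -1.64, beside 1.05, 1.29 and -1.66 with all libraries. Prrt1 after exploration was at -0.76, beside -0.74. Averaged over environments, Shisa7, Prrt1, Olfm3 and Nrn1 were at -0.34, -0.42, -0.83 and 0.25, beside -0.38, -0.46, -0.75 and 0.29. The call of Shisa7 in WT-labelled mice was lost as well, at a log2 change of -0.48. In KO-labelled mice the calls between environments were lost for Cacng7, Abhd12 and Dlg2. Cnih3 was then called lower averaged over labels (-0.99), which it was not with all libraries (-0.59). When genes of low level were kept in the fit, the calls between labels of Shisa9, Nptxr, Prrt1, Shisa7 and Nrn1 were lost, as were that of Olfm3 averaged over environments, that of Shisa7 in WT-labelled mice and those of Cacng5, Abhd12 and Adar in KO-labelled mice (limma adjusted p of 0.053 to 0.103).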

How the data were processed

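RNA of laser-cut CA1 was measured in 10 of the 16 listed samples; the 6 others, whose source is a learning condition, were left out. Each deposited value is an FPKM of a gene in a library, per the file headers, so the authors had scaled fragments to transcript length and library depth. The submitters' processing notes name HISAT, StringTie, GATK, Bowtie2, RSEM and the builds GRCm38 and mm10, without versions or roles. The home cage table (18257 genes) and the exploration table (19156 genes) were joined on gene ID (17986 genes). Samples were grouped by the labels' genotype and environment. Depth was estimated from the spacing of values between 0.08 and 0.6 FPKM over 12118 genes.

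limma 3.58.1 (R 4.3.3) was run on log2(FPKM + 1) with an intensity trend and 1 mean per group, on the 11892 genes that reached 1 FPKM in 2 or more libraries, with Benjamini-Hochberg adjustment in each of 7 comparisons. The fit had 6 residual and 5.71 prior degrees of freedom. It was run on simulated data drawn from a normal distribution around each gene's mean. Those data held no effect of table or tissue make-up, so the run cannot show how the fit deals with such effects. Ratios were tested by exact two-sided permutation within the other factor. P-values rest on 2 or 3 mice per group. Alternatives were another pseudocount (0.1), filter (none, or 5 FPKM), scaling, variance model and set of groups, and each library left out; the fit without the choroid plexus libraries was chosen after seeing the data.

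The members and lists were chosen with earlier results of these data known. All 9 members, Neil3 and Adarb1 are always named; from each pathway list, up to 3 called genes per direction and comparison; and for each called member, the 3 genes of most alike pattern, of which 1 is not reported here. Values of Cpne7, Pcp4, Wfs1 and Dcn are given after they were seen.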

Additional observations from a re-analysis of the deposited data

Results flagged for a closer look

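The response to exploration differed between the genotype labels for 2 genes of the pathway lists, by a test of the difference itself. Over all tested genes this difference was called for 0.875%. For Nptxr the response in KO-labelled mice minus that in WT-labelled mice was -1.71 on the log2 scale (SE 0.282, limma adjusted p = 0.0497), from a fall of -1.60 in KO-labelled mice. For Olfm3 it was 1.82 (SE 0.285, limma adjusted p = 0.0497), from a rise of 1.64 in KO-labelled mice. Both calls held in 4 of the 10 fits with a library left out, and over those 10 fits the difference ranged from -2.12 to -1.30 for Nptxr and from 1.39 to 2.25 for Olfm3. Without KO-labelled home cage library 2 the differences were -1.30 and 1.39 (limma adjusted p = 0.184 for each). Both calls were also lost without WT-labelled home cage library 1 (-1.56 and 1.80, limma adjusted p = 0.223), without WT-labelled exploration library 1 or 2 and without KO-labelled exploration library 2 or 3. They were lost too with a pseudocount of 0.1 FPKM (-1.73 and 2.07, limma adjusted p = 0.0591), with no filter on low values (limma adjusted p = 0.123), with no variance trend (limma adjusted p = 0.0664) and without the 3 libraries with a choroid plexus signal (-1.29 and 1.63, limma adjusted p near 1), and held in the other 4 of these 8 alternatives.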

How the results depend on the processing

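No paired analysis was possible because the labels' numbers do not tie an animal of one group to an animal of another. The number of called receptor genes was 1 between labels in the home cage, and it was 0 with no filter, with no variance trend, with robust empirical Bayes and without the 3 libraries with a choroid plexus signal. Between environments in WT-labelled mice it was 1, and it was 0 with no filter, with size factors and without those 3 libraries, and 2 under quantile normalization. In KO-labelled mice it was 2, and it was 1 when only the groups compared were fitted and 1 without those 3 libraries. Averaged over labels it was 1, and 2 under quantile normalization. With each library left out in turn, these counts ran from 0 to 2, 0 to 1, 0 to 4 and 1 to 3, and from 0 to 1 for the averaged difference between labels and for the difference in response. Where a group kept 1 library, it was assumed to vary like the others. Over all tested genes, the count between labels in the home cage was 425, and 47 with no filter and 15 without the 3 libraries; the corresponding counts after exploration were 71, 16 and 4. Left-out libraries moved the home cage count from 13 to 588. Among pathway genes, Abhd12 averaged over labels turned from 0.21 to -0.0103 under quantile normalization; the cause was not tested. Size factors moved the higher share of calls from 42.0% to 54.4% between environments in KO-labelled mice and from 39.7% to 51.8% averaged over labels, and quantile normalization moved it from 36.4% to 50.4% between labels averaged over environments.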
